A study of Homo sapiens and Mus musculus with 24 samples.

Results

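The 10 heat shock chaperone mRNAs followed here were HSPA1A, HSPA1B, HSPA8, HSPA5, HSP90AA1, HSP90AB1, HSPD1, HSPE1, HSPH1 and DNAJB1, in a pair of human lines, HepG2 (hepatocellular carcinoma) and HEK293 (embryonic kidney), the mouse neuroblastoma line Neuro2a and HippCulture, primary cultures of mouse hippocampal neurons. The genes were taken by symbol, with the mouse orthologs by the same symbol ignoring case, and all 10 were found among the 58381 human and the 53715 mouse genes of the count files. HSPA1A, HSPA1B, HSPH1, DNAJB1 and HSP90AA1 were treated as heat-inducible and HSPA8, HSP90AB1, HSPA5, HSPD1 and HSPE1 as constitutive members. From each cell type there were 3 UV-irradiated and 3 nonirradiated samples, 24 in all. The irradiated cells were crosslinked with UV on ice and their RNA was extracted with TRIzol, so that RNA joined to protein leaves the aqueous phase with the interphase. The nonirradiated cells were extracted in the same way, and lysates of both groups were heated before the chloroform was added. HepG2, HEK293 and Neuro2a are long-passaged lines (the culture methods name HEK293T where the labels say HEK293), while HippCulture came from the brain of E16.5 mouse embryos, cultured with AraC against glia, and no label says which embryos went into which sample. No label tells whether replicates were separate cultures, so the tests below measure the spread between these samples.

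Heat shock proteins keep other proteins folded. Hsp70 proteins (HSPA1A, HSPA1B, HSPA8) bind unfolded stretches in the cytosol together with J-domain partners such as DNAJB1 and exchange factors such as HSPH1, and Hsp90 proteins (HSP90AA1, HSP90AB1) act on kinases and receptors later in folding. HSPA5, also known as BiP, is the Hsp70 of the endoplasmic reticulum, and HSPD1 and HSPE1 form the Hsp60 and Hsp10 chaperonin of mitochondria. On heat or other protein-damaging stress, heat shock factor 1 binds heat shock elements, repeats of the triplet GAA in alternating orientation, and raises transcription of the inducible members, while the constitutive members are made in unstressed cells. The comparison of UV with nonirradiated samples, in contrast, asks how much of each mRNA stays in the aqueous phase after crosslinking.

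The promoters show which members carry a perfect element near an annotated start. RefSeq windows of 300 bases (GRCh38.p14, 250 before to 50 after a start) were searched for the triplets GAA, TTC and GAA in a row with 2 bases of any kind between neighbours, and for the reverse complement (TTC, GAA and TTC), which covers both strands. A match was found in 172 of 35116 windows (0.49%), and in a window of 4 of the 10 members. These were HSPA8, HSP90AB1 and HSPD1, treated here as constitutive, and HSP90AA1, treated as heat-inducible, so the matches did not follow these roles. An element that departs from these letters is not found by the search, and induction by heat was not measured. The windows of the near-identical copies HSPA1A and HSPA1B are shown because their counts differ below, and the 4 with a match follow, with the matched bases in capitals. All are written 5′ to 3′ on the strand of the gene.
HSPA1A, chr6:31815293-31815592, plus strand: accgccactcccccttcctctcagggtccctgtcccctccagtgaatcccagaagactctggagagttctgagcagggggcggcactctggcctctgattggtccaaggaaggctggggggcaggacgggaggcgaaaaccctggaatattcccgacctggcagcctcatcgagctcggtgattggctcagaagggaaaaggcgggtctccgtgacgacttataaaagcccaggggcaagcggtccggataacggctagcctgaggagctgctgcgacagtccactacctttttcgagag
HSPA1B, chr6:31827488-31827787, plus strand: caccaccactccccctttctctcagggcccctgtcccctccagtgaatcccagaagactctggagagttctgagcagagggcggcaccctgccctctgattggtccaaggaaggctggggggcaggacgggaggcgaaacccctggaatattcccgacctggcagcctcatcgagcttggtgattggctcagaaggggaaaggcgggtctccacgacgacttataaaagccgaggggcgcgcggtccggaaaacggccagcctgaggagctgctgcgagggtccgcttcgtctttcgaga
HSPA8, chr11:123062087-123062386, minus strand: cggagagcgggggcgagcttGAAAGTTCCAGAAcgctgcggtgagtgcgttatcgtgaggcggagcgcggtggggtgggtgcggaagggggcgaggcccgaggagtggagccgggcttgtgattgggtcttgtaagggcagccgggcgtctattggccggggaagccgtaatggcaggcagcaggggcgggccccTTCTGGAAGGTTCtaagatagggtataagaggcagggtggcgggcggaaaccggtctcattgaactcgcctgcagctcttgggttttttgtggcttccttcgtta
HSP90AA1, chr14:102086995-102087294, minus strand: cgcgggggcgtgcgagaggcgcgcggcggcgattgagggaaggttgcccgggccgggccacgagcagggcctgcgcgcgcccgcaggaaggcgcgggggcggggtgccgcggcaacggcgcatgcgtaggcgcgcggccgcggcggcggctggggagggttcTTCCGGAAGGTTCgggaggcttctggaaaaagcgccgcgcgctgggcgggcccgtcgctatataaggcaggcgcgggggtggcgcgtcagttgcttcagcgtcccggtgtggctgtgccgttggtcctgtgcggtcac
HSP90AB1, chr6:44247693-44247992, plus strand: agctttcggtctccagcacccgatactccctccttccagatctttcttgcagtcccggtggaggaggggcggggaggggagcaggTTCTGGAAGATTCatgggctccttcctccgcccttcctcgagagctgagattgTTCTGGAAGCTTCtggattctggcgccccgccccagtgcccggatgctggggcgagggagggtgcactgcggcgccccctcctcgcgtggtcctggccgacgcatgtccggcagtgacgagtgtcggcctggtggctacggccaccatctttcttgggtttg
HSPD1, chr2:197499791-197500090, minus strand: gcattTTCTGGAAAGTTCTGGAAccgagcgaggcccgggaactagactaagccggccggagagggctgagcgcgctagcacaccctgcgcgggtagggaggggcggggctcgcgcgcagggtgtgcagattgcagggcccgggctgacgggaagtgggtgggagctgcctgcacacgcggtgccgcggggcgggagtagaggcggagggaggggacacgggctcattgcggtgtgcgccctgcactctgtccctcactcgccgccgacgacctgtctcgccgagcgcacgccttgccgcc
The match of HSP90AA1 begins 88 bases before the start, and those of HSPA8 begin 55 and 230 bases before it. HSP90AB1 has matches 112 and 165 bases before the start of this window. The matches of HSPD1 overlap each other, from 240 and 245 bases before its start. HSPD1 and HSPE1 lie head to head on chromosome 2 (hg38), with 538 bases between the starts used here, and the HSPD1 matches lie 294 bases before the HSPE1 start, outside the HSPE1 window. Neither the HSPA1A nor the HSPA1B window holds these exact letters, and both hold TATAAA. Over 299 aligned bases these windows share 277 (92.6%).

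The libraries held 36573473 to 53511592 counts on genes for HepG2, 9444707 to 11188033 for HEK293, 7449341 to 9002243 for Neuro2a and 6910907 to 9163323 for HippCulture, so values of HepG2 rest on more reads. All 10 hepatocyte markers reached 1 CPM (count per 1000000 reads) in HepG2 and, without irradiation, 1 of 10 in HEK293. In Neuro2a, Tubb3, Stmn2, Hand2 and Chga reached 1 CPM while Gata3 and Isl1 did not. HippCulture held all 10 neuron markers (2013 to 2212 CPM in sum without irradiation and 1413 to 1579.5 with it) and 4 of 5 astrocyte markers (516 to 521 and 656 to 684 CPM), and Gjb6 was the astrocyte marker below 1 CPM. All 5 markers of the oligodendrocyte lineage also reached 1 CPM there (82.9 to 92.1 CPM in sum without irradiation and 104 to 130.3 with it). The part of these markers in the results below was not tested.

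Without irradiation, HSP90AB1 and HSPA8, the constitutive chaperones of the cytosol, were among the 3 highest members in all 4 cell types. Levels are given as RPKM, reads per kilobase of the gene's exons, scaled to library size after TMM scaling within the species. HSP90AB1 was the highest member in HepG2, at 592, 891 and 864 RPKM in replicates 1 to 3, and in HEK293, at 452, 289.8 and 229 RPKM. Hspa8 was the highest in Neuro2a, at 819, 902 and 966 RPKM, and in HippCulture, at 484, 399 and 531 RPKM. HSPA1A or its mouse ortholog was the lowest or next to lowest member in every cell type, while HSPA1B ranged more widely. In HepG2, HSPA1A had 5.83, 6.84 and 6.85 RPKM and HSPA1B 9.45, 11.7 and 12.2 RPKM. In HippCulture, Hspa1a had 1.91, 3.58 and 1.84 RPKM and Hspa1b 1.53, 2.06 and 1.63 RPKM. DNAJB1 and HSPH1 had means of 7.16 to 19.2 RPKM in the 4 cell types.

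Neighbours in this order were close in places. In HepG2 only HSPH1 and HSPA1A, of the 9 neighbouring pairs, had samples that overlapped. In HEK293, 7 of 9 neighbouring pairs overlapped, and the gaps were those between HSPA1B and HSPA5 and between HSPH1 and HSPA1A. The overlapping pairs were Hspa5 with Hsp90aa1, Hsph1 with Dnajb1 and Hspa1b with Hspa1a in Neuro2a, and Hspd1 with Hspa5 and Hspa1a with Hspa1b in HippCulture. Reads on the copies are uncertain, since 72.6% of the 50-base windows in the exons of HSPA1A and 71.4% of those of HSPA1B also occur elsewhere in the genome (60.3% for Hspa1a, 62.3% for Hspa1b, 56.2% for Hsp90aa1, 50.9% for Hspd1, 36.4% for Hspa8 and at most 20.3% for the other members), and the counting commands name no option for reads that map to several places.

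**Figure D1:**
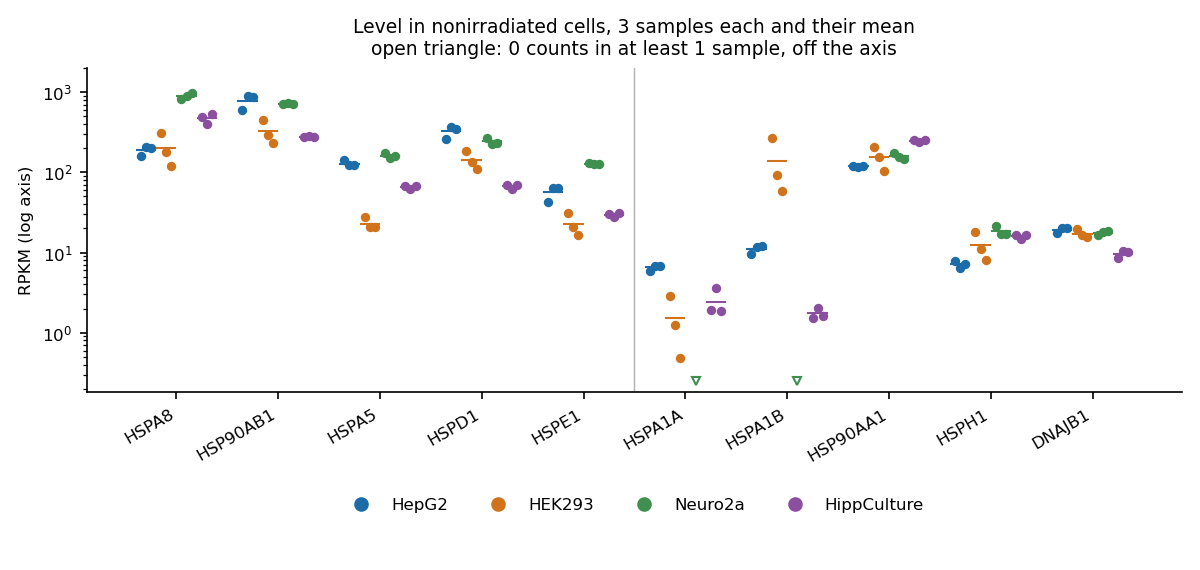
Levels of the 10 mRNAs in nonirradiated cells, in RPKM on a log axis, with 1 point per sample and a bar at the mean of 3 samples (mouse genes under the human symbols). HSPA8 and HSP90AB1 are high in all 4 cell types, HSPA1B is at 59.2 to 268 RPKM in HEK293 and at most 12.2 RPKM elsewhere, and the open triangles mark Hspa1a and Hspa1b in Neuro2a, with 0 counts in at least 1 sample.

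HSPA1A and HSPA1B differed between the human lines in opposite directions. HSPA1A was at 5.83 to 6.85 RPKM in HepG2 and at 2.86, 1.25 and 0.481 RPKM in HEK293, a log2 difference of 2.102 (HepG2 over HEK293, standard error 0.40, adjusted p = 0.00059). HSPA1B was at 9.45 to 12.2 RPKM in HepG2 and at 268, 93.1 and 59.2 RPKM in HEK293, a log2 difference of −3.66 (standard error 0.47, adjusted p = 2.8e-05). For neither gene did the lines overlap. Of the reads on the pair, HSPA1A took 37.8%, 36.5% and 35.7% in nonirradiated HepG2 and 1.04%, 1.30% and 0.793% in nonirradiated HEK293. Each gene is a continuous exon on chromosome 6 of hg38 (HSPA1A from 31815464 to 31817946 and HSPA1B from 31827735 to 31830255). The copies share most of their 50-base windows, and the part of this in the split of reads between them was not tested.

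The human lines differed in 7 of the 10 members in all, 5 of them higher and 2 lower in HepG2, where 37.6% of 23830 genes tested were higher and 38.1% lower. HSPA5 differed by 2.48 on the log2 scale (standard error 0.17, adjusted p = 1.4e-07), from 122 to 141 RPKM in HepG2 and 20.7 to 27.4 RPKM in HEK293. HSP90AB1, HSPD1 and HSPE1 were 1.21 to 1.32 higher in HepG2 (adjusted p from 0.00032 to 0.001), and HSPH1 was lower by a log2 difference of −0.79 (adjusted p = 0.012). HSPA8 (−0.10, 95% interval −0.67 to 0.48), HSP90AA1 (−0.39, −0.82 to 0.04) and DNAJB1 (0.16, −0.11 to 0.43) did not pass, but HSP90AA1 did, at −0.56, without replicate 3 of HEK293 (adjusted p = 0.015). HepG2 and HEK293 were run on different sequencer models, and model and line cannot be told apart.

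Neuro2a had no count of Hspa1a in any of its 6 samples and 3 counts of Hspa1b in all, in nonirradiated replicate 3 and in UV replicate 2. A count of 0 allows up to 3 counts, at most 0.403 CPM of the library total in a sample. HippCulture held 170 counts of Hspa1a and 115 of Hspa1b over its 3 nonirradiated samples. Hspa1a was therefore at least 62.9-fold higher in HippCulture, with the floor of 3 counts set over the 3 Neuro2a samples, and Hspa1b 63.8-fold higher (95% counting interval 17.3 to 533). Hspa1a shares 564 exon bases with Gm20481, a gene on the opposite strand, which was counted at 20 to 44 in the nonirradiated HippCulture samples, and the counting gave no strand option, so reads of the genes in the shared bases cannot be told apart.

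The other mouse members went both ways, and with Hspa1a and Hspa1b, 6 members were higher and 3 lower in Neuro2a, against 39.0% and 41.4% of 20940 genes tested. Hspe1 was 4.30-fold higher in Neuro2a (log2 difference 2.104, standard error 0.08, adjusted p = 4.5e-14) and Hspd1 3.60-fold (1.85, standard error 0.09, adjusted p = 1.2e-12). Hsp90ab1 (1.38), Hspa5 (1.32), Hspa8 (0.93) and Dnajb1 (0.86) were also higher, with adjusted p of at most 2.7e-07. Hsp90aa1 was lower, at 175, 156 and 148 RPKM in Neuro2a and 253, 242 and 251 RPKM in HippCulture (−0.64, standard error 0.08, adjusted p = 1.4e-06). The isoforms of cytosolic Hsp90 thus differed in opposite directions between the mouse samples. Hsph1 missed the threshold (0.21, 95% interval 0.02 to 0.39, adjusted p = 0.055) and passed at 0.26 without replicate 3 of Neuro2a (adjusted p = 0.032). In bulk RNA, fewer cells of a type and less RNA per cell cannot be told apart, and HippCulture held astrocyte and oligodendrocyte lineage markers beside those of neurons.

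After irradiation, the constitutive members passed the test as higher in 5, 2, 4 and 5 of 5 cases in HepG2, HEK293, Neuro2a and HippCulture and as lower in 0. The heat-inducible members passed as higher in 2 of 5, 1 of 5, 1 of 3 and 1 of 5 cases and as lower in 1, 0, 1 and 1. With the replicate number as a block, used for HEK293 and Neuro2a, constitutive members were higher in 4 and 5 of 5 cases, and heat-inducible members higher in 2 of 5 and 1 of 3 and lower in 2 and 2. UV effects are log2 differences of UV over nonirradiated samples after TMM scaling within a cell type, so that 0 stands close to the middle of all genes (their median was −0.08 for HepG2, −0.08 for HEK293, −0.14 for Neuro2a and −0.04 for HippCulture). In HepG2, 7 of the 10 members were higher and 1 lower, where 38.1% of 20117 genes tested were higher and 40.7% lower. HEK293 had 3 members higher and 0 lower (24.2% and 26.4% of 20472 genes). At an unadjusted p under 0.05, 4 members were higher and 0 lower there, a count for which the share of all genes was not taken. DESeq2 also called 3 higher and 0 lower (4765 and 4921 of 20472 genes). Neuro2a had 5 of 8 tested members higher and 1 lower (28.9% and 33.0% of 17425 genes), and HippCulture 6 of 10 higher and 1 lower (26.1% and 25.9% of 18488 genes). The median of the constitutive members was 0.86, 0.54, 0.36 and 0.49 in the order of the cell types above, and that of the heat-inducible members 0.12, −0.26, −0.25 and −0.17. HSPE1, HSPA5 and DNAJB1 passed the test as higher in 4 of 4 cell types, HSPA8 and HSP90AB1 in 3, HSPD1 in 2 and HSPA1A in 1 of the 3 where it was tested, while HSPH1 was lower in 3 and HSPA1B and HSP90AA1 passed in none, all without the block. With it, HSPA8, HSPD1 and HSP90AA1 also passed as higher and HSPA1B and HSPH1 as lower in HEK293, and Hspd1 as higher and Hsp90aa1 as lower in Neuro2a.

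**Figure D2:**
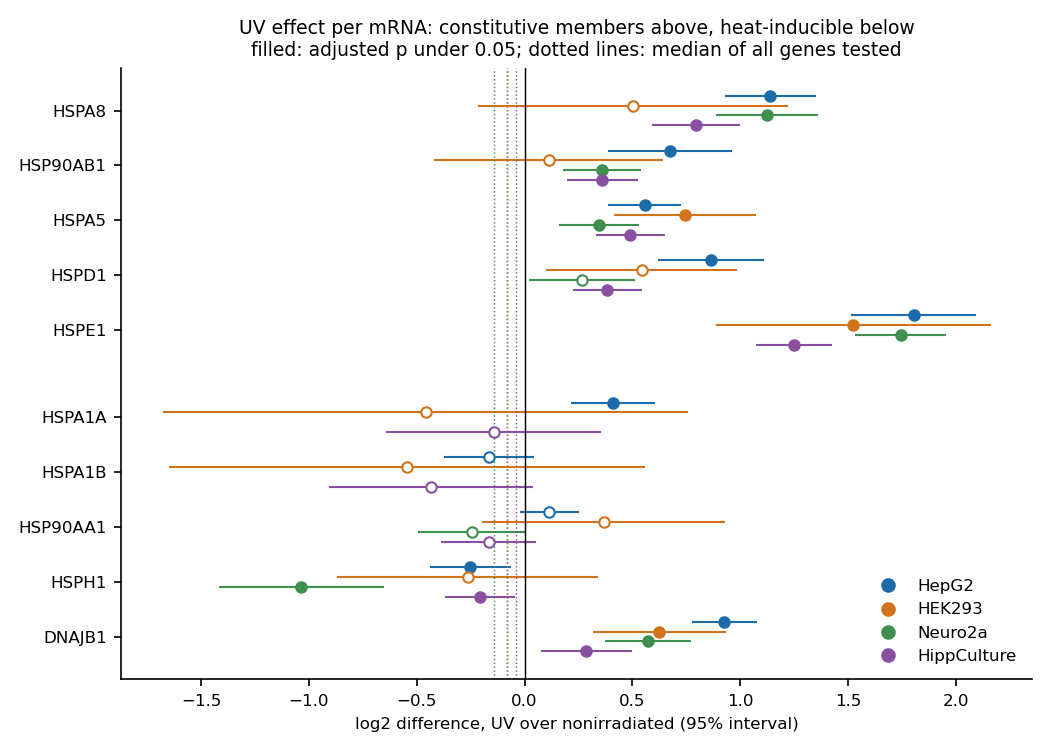
UV effect of each mRNA in the 4 cell types, as the log2 difference of UV over nonirradiated samples with its 95% interval, 3 samples per group, filled where the adjusted p was under 0.05 (dotted lines, median of all genes). HSPE1 lies highest in each cell type, at 1.25 to 1.80, the constitutive members lie between 0.11 and 1.80, and the heat-inducible ones between −1.03 and 0.93.

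The direction of these differences holds only relative to the other genes. With the library total as the only scaling, the median of all genes moved to −1.38 for HepG2, −0.84 for HEK293, −1.32 for Neuro2a and −0.59 for HippCulture, and 1 member was higher in each cell type, HSPE1 (0.5, 0.74, 0.55 and 0.7), while 8, 3, 6 and 4 were lower. Over all genes, the split of higher and lower calls went from 7660 and 8189 to 1734 and 15830 for HepG2, from 4962 and 5405 to 1557 and 11168 for HEK293, from 5033 and 5746 to 1058 and 12852 for Neuro2a and from 4822 and 4791 to 1320 and 9149 for HippCulture. All 5 constitutive members lay above the median of all genes in each cell type, a count that the scaling hardly bears on since it moves all genes of a cell type together, and of the heat-inducible members 3 of 5 did so for HepG2, 2 of 5 for HEK293, 1 of 3 for Neuro2a and 1 of 5 for HippCulture. After TMM scaling, the median of protein-coding genes alone was 0.17 for HepG2, 0.01 for HEK293, −0.03 for Neuro2a and 0.05 for HippCulture. HSP90AA1 in HepG2, at 0.12, lay above the median of all genes and below that of protein-coding genes. Directions given from here on are those after TMM scaling.

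HSPA8, the constitutive Hsp70 of the cytosol, rose after irradiation in 3 cell types. In HepG2 it was at 424, 539 and 539 CPM without and at 1102, 1099 and 1105 CPM with UV. This is a log2 difference of 1.14 (standard error 0.11, adjusted p = 1.3e-05), and the groups did not overlap. In Neuro2a it was at 2436, 2692 and 2888 CPM without and at 5069.9, 5773 and 6609 CPM with UV, a log2 difference of 1.12 (standard error 0.12, adjusted p = 2.2e-06). In HippCulture it was at 1638, 1352 and 1786 CPM without and at 2561, 2871 and 2847 CPM with UV, a log2 difference of 0.79 (standard error 0.10, adjusted p = 2.3e-06). Every irradiated sample of Neuro2a and HippCulture lay above every nonirradiated one. In HEK293 the samples were spread widely, at 1363, 767 and 510.1 CPM without and at 1776, 1149.6 and 815 CPM with UV, and the groups overlapped (0.50, standard error 0.37, adjusted p = 0.28). Each irradiated sample of HEK293 was nevertheless above the nonirradiated sample of its number, and with the replicate number as a block the difference was 0.55 (adjusted p = 8.3e-09). Without the block it ranged from 0.17 without UV replicate 1 (adjusted p = 0.69) and 0.23 without nonirradiated replicate 3 (adjusted p = 0.62) to 0.97 without nonirradiated replicate 1 (adjusted p = 0.027).

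HSPA1A and HSPA1B, the stress-inducible Hsp70 copies, passed the test in 1 case, that of HSPA1A in HepG2. In HepG2, HSPA1A was at 7.97, 9.17 and 9.30 CPM without and at 12.6, 10.8 and 11.7 CPM with UV, and HSPA1B at 13.1, 16.0 and 16.8 CPM without and at 13.0, 14.4 and 13.6 CPM with UV. HSPA1A was higher with no overlap (0.41, standard error 0.10, adjusted p = 0.0045), and HSPA1B did not pass (−0.17, adjusted p = 0.18). Where only genes with at least 10 counts in every sample were kept, the HSPA1A call was lost, at 0.14, and HSPA1B passed as lower, at −0.44 (adjusted p = 0.0038). HSPA1B also passed as lower, at −0.34, without nonirradiated replicate 1. The DESeq2 test with the replicate block did not call HSPA1A (adjusted p = 0.063). The share of HSPA1A in the reads of the pair went from 37.8%, 36.5% and 35.7% to 49.3%, 43.0% and 46.3% (exact two-sided permutation p = 0.1, the smallest that 3 against 3 samples allow; 0.3 after adjustment over 3 cell types). Summed over the copies, the UV effect in HepG2 was 0.07 (adjusted p = 0.47).

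HEK293 gave the widest range for this pair. HSPA1B was at 611, 209 and 133 CPM without and at 370.2, 168 and 116 CPM with UV, while HSPA1A was at 6.42, 2.75 and 1.06 CPM without and at 4.20, 2.09 and 1.33 CPM with UV. The groups overlapped for both genes, and neither passed the test (−0.54 for HSPA1B, standard error 0.56, adjusted p = 0.45, and −0.46 for HSPA1A, standard error 0.62, adjusted p = 0.56). For HSPA1B, each irradiated sample was below the nonirradiated sample of its number, and the blocked difference was −0.42 (adjusted p = 1.1e-05), or −0.42 with the copies summed (adjusted p = 1.2e-05). The call was not kept without replicate 1. Without both samples of that number HSPA1B was at −0.26 (adjusted p = 0.22), and without nonirradiated replicate 1 alone at 0.35 (adjusted p = 0.5). In HippCulture, Hspa1a was at 4.45, 8.37 and 4.27 CPM without and at 4.83, 4.03 and 6.20 CPM with UV, with overlap (−0.14, adjusted p = 0.66). Hspa1b was there at 3.39, 4.55 and 3.58 CPM without and at 2.70, 2.62 and 3.10 CPM with UV, with no overlap, and did not pass (−0.43, standard error 0.24, adjusted p = 0.14).

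**Figure D3:**
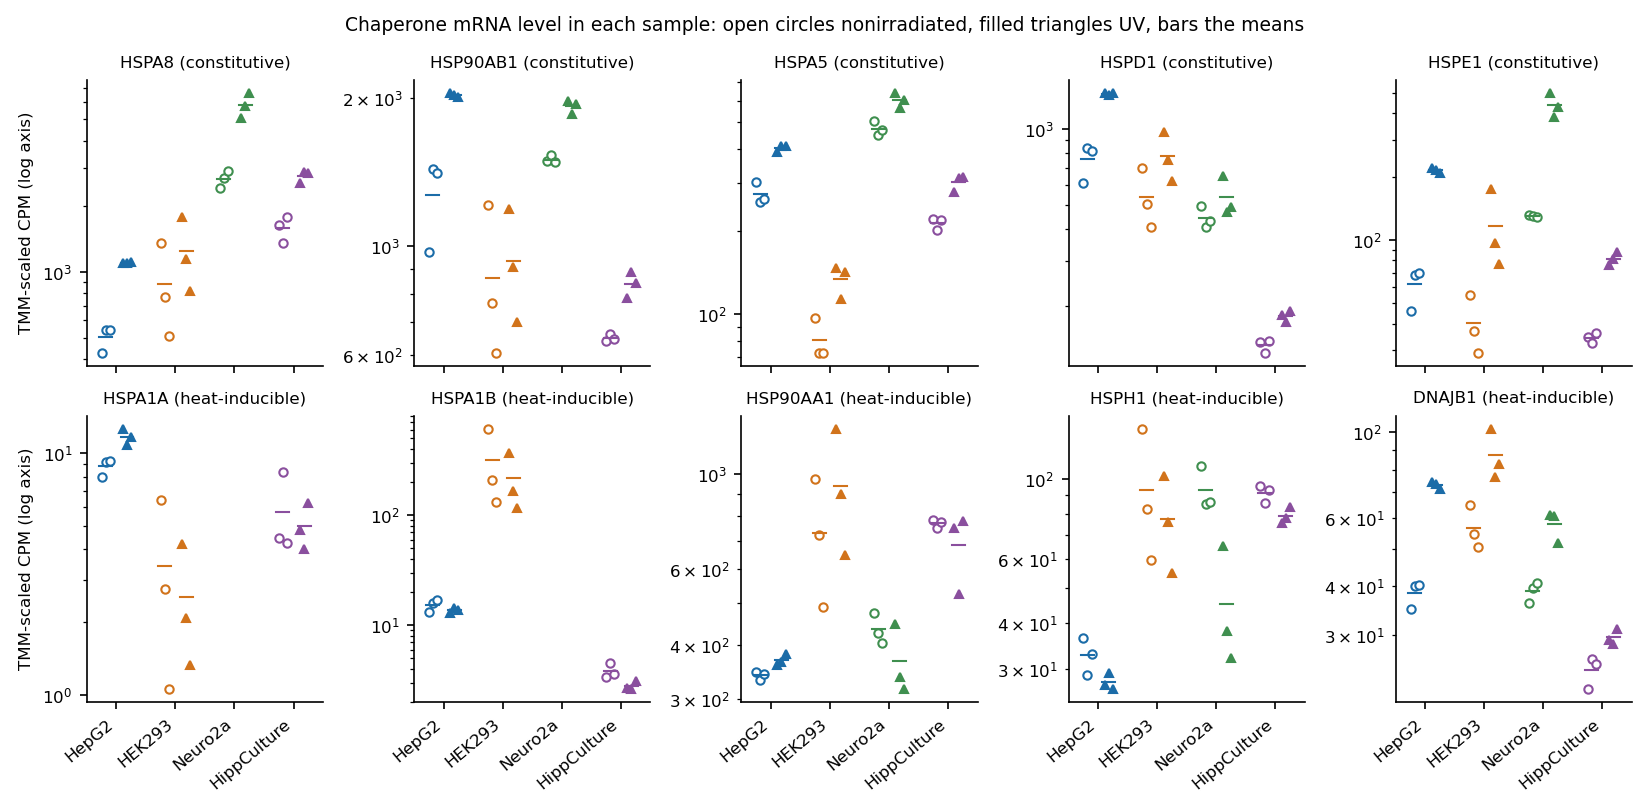
Level of each mRNA in every sample, in CPM on a log axis, by cell type and irradiation (open circles nonirradiated, filled triangles UV, bars the means). HSPE1 separates the groups in all 4 cell types, and the HEK293 points of HSPA1B run from 116 to 611 CPM. No Neuro2a sample is drawn for Hspa1a and Hspa1b, since each of these groups holds values of 0.

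HSPH1, the Hsp110 that exchanges nucleotide on Hsp70, passed the test as lower in 3 cell types, and fell furthest in Neuro2a. In Neuro2a it was at 108, 85.4 and 86.0 CPM without and at 65.3, 38.2 and 32.2 CPM with UV, with no overlap, a log2 difference of −1.03 (standard error 0.20, adjusted p = 0.00039). In HepG2 it was at 36.5, 28.9 and 32.9 CPM without and at 27.1, 29.2 and 26.4 CPM with UV, with overlap (−0.25, standard error 0.10, adjusted p = 0.037). In HippCulture it was at 95.4, 85.5 and 93.2 CPM without and at 75.7, 77.9 and 83.8 CPM with UV, with no overlap (−0.21, standard error 0.08, adjusted p = 0.043). The calls in HepG2 and HippCulture were close to the threshold and were lost without any of 3 and 4 samples, respectively (adjusted p of 0.051 without nonirradiated replicate 3 of HepG2 to 0.27 without nonirradiated replicate 3 of HippCulture). In HEK293 HSPH1 was at 137, 82.7 and 59.7 CPM without and at 102, 75.9 and 55.2 CPM with UV, and it did not pass without the block (−0.26, adjusted p = 0.5) but did with it (−0.23, adjusted p = 0.011). Neither was this call kept without replicate 1, with −0.12 without both samples of that number (adjusted p = 0.54) and 0.12 without nonirradiated replicate 1 (adjusted p = 0.7).

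DNAJB1, a J-domain protein that hands substrates to Hsp70, was the heat-inducible member that rose in all 4 cell types. In HepG2 it was at 34.9, 39.98 and 40.4 CPM without and at 74.5, 73.4 and 71.5 CPM with UV (0.93, standard error 0.08, adjusted p = 5.2e-06). In HEK293 it was at 64.7, 54.5 and 50.4 CPM without and at 102, 76.8 and 82.8 CPM with UV (0.62, standard error 0.16, adjusted p = 0.0096). In Neuro2a it was at 36.3, 39.6 and 40.9 CPM without and at 61.2, 60.8 and 51.7 CPM with UV (0.57, standard error 0.10, adjusted p = 0.00024). The irradiated samples were the higher ones throughout. In HippCulture the difference was smallest, from 21.7, 26 and 25.2 CPM to 29.1, 28.4 and 31.1 CPM (0.29, standard error 0.11, adjusted p = 0.03). This call was lost in the DESeq2 test without the block (adjusted p = 0.11) and with it (adjusted p = 0.19). It was also lost without nonirradiated replicate 1 (adjusted p = 0.12) or UV replicate 3 (adjusted p = 0.13). Both other filters lost it too, at 0.26 with every gene of at least 1 count kept (adjusted p = 0.099) and at 0.2 with at least 10 counts required in every sample (adjusted p = 0.11).

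Of the cytosolic Hsp90 mRNAs, only the constitutive isoform passed the test without the block. HSP90AB1, the constitutive isoform, was at 971, 1434 and 1407 CPM without and at 2048, 2027 and 2008 CPM with UV in HepG2 (0.67, standard error 0.15, adjusted p = 0.0023). It rose by 0.36 in Neuro2a (adjusted p = 0.0041) and by 0.36 in HippCulture (adjusted p = 0.0012), where the irradiated samples lay at 1852 to 1976 and 785 to 884 CPM and the nonirradiated ones at 1483 to 1530.2 and 642 to 663 CPM. In these 3 cell types the groups were apart. In HEK293 HSP90AB1 was at 1215, 768 and 606 CPM without and at 1191, 907 and 699.8 CPM with UV, with overlap (0.11, standard error 0.27, adjusted p = 0.75, and 0.09 with the block). HSP90AA1, the inducible isoform, passed in no cell type in that test. Its differences were 0.12 for HepG2, 0.37 for HEK293, −0.25 for Neuro2a and −0.17 for HippCulture (adjusted p = 0.16, 0.31, 0.11 and 0.23). With the block it passed as higher in HEK293 (0.37, adjusted p = 1.4e-05, and 0.36 with adjusted p = 0.072 without the block and without both samples numbered 1) and as lower in Neuro2a (−0.26, adjusted p = 0.00037). In Neuro2a it also passed as lower, at −0.43, without UV replicate 1, the sample with 448 CPM beside 337 and 316 CPM. Both other filters called Hsp90aa1 lower there too. It was at −0.33 with every gene of at least 1 count kept (adjusted p = 0.0057) and at −0.38 with at least 10 counts in every sample (adjusted p = 0.02).

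HSPA5, which folds proteins in the endoplasmic reticulum, rose in all 4 cell types with no overlap. In HEK293 it was at 96.7, 72.1 and 72.2 CPM without and at 147, 114 and 142 CPM with UV (0.74, standard error 0.17, adjusted p = 0.0056). The difference was 0.56 in HepG2 (adjusted p = 0.00031), 0.49 in HippCulture (adjusted p = 4.4e-05) and 0.34 in Neuro2a (adjusted p = 0.0063), where the call was lost at 0.21 with at least 10 counts required in every sample (adjusted p = 0.056). HSPA5 was the member whose HEK293 samples differed least within the UV group.

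The mitochondrial chaperonin mRNAs rose unequally. HSPE1, the Hsp10 lid, was at 46.2, 68.2 and 69.9 CPM without and at 220.3, 215 and 209 CPM with UV in HepG2, 3.49-fold higher (1.80, standard error 0.15, adjusted p = 4.9e-06). In HEK293 it was at 55.0, 37.0 and 29.0 CPM without and at 175, 97.1 and 76.7 CPM with UV (1.52, standard error 0.33, adjusted p = 0.0041). In Neuro2a it was at 132, 129.6 and 129 CPM without and at 499, 382 and 429 CPM with UV (1.74, standard error 0.11, adjusted p = 1.2e-08). HippCulture went from 34.6, 32.3 and 36.1 CPM to 76.2, 81.2 and 87.4 CPM (1.25, standard error 0.09, adjusted p = 8e-10). In each cell type the lowest irradiated sample was above the highest nonirradiated one, and the difference was above that of 94.3% to 96.2% of the genes tested.

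HSPD1, the Hsp60 barrel, rose in HepG2 from 608, 842 and 817 CPM to 1380.3, 1364 and 1383 CPM (0.86, standard error 0.13, adjusted p = 0.00022). In HippCulture it rose from 144, 129.7 and 145 CPM to 184, 172 and 190 CPM (0.38, standard error 0.08, adjusted p = 0.00049). In HEK293 (0.54, adjusted p = 0.071) and Neuro2a (0.27, adjusted p = 0.081) the groups overlapped, and the blocked differences were 0.55 (adjusted p = 2.7e-09) and 0.26 (adjusted p = 0.00036). Without nonirradiated replicate 1 HSPD1 passed in both, at 0.78 and 0.35, and without UV replicate 3 in HEK293, at 0.73, while without UV replicate 1 of HEK293 it was at 0.37 (adjusted p = 0.17). HSPE1 shares 473 of its 1977 exon bases (23.9%) with HSPD1 and HSPE1-MOB4, a read-through gene, and the counting gave a read to each gene it overlapped, so part of the reads of HSPE1 cannot be told apart from theirs. In nonirradiated HepG2, HSPE1-MOB4 had 2123, 4583 and 3734 counts beside 2604, 5809 and 4600 of HSPE1. In nonirradiated HEK293 it had 623, 478 and 434 beside 651, 457 and 383.

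Ratios within a library do not depend on the scaling between libraries, and 19 were compared by an exact two-sided permutation test. For these the smallest p that 3 against 3 samples allow is 0.1, and adjustment over the 19 cannot lower it, so no ratio could pass. The log2 ratio of HSPA1A and HSPA1B summed over HSPA8 was lower with UV by −1.07 in HepG2, −0.96 in HEK293 and −1.06 in HippCulture. In HEK293 it was −1.14, −1.86 and −1.93 without and −2.25, −2.76 and −2.79 with UV. The groups did not overlap in any of the 3 cell types, and in Neuro2a the ratio could not be formed.

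HSPH1 over HSPA8 was lower in all 4 cell types without overlap, by −1.40 for HepG2, −0.77 for HEK293, −2.22 for Neuro2a and −1.01 for HippCulture. HSPE1 over HSPD1 was higher in all 4 without overlap, by 0.95, 0.93, 1.48 and 0.87. HSP90AA1 over HSP90AB1 was lower by −0.58 in HepG2, −0.62 in Neuro2a and −0.55 in HippCulture, and in HEK293 it differed by 0.23 with overlap (exact permutation p = 0.2). In HEK293 this ratio was higher with UV in all 3 pairs of samples of the same number, a pairing that the permutation test leaves out. DNAJB1 over HSPA8 differed by −0.22, −0.55 and −0.52 in HepG2, Neuro2a and HippCulture, and by 0.08 with overlap in HEK293 (exact permutation p = 0.9). The ratios without overlap each had the smallest exact permutation p of 0.1 (0.112 adjusted).

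**Figure D4:**
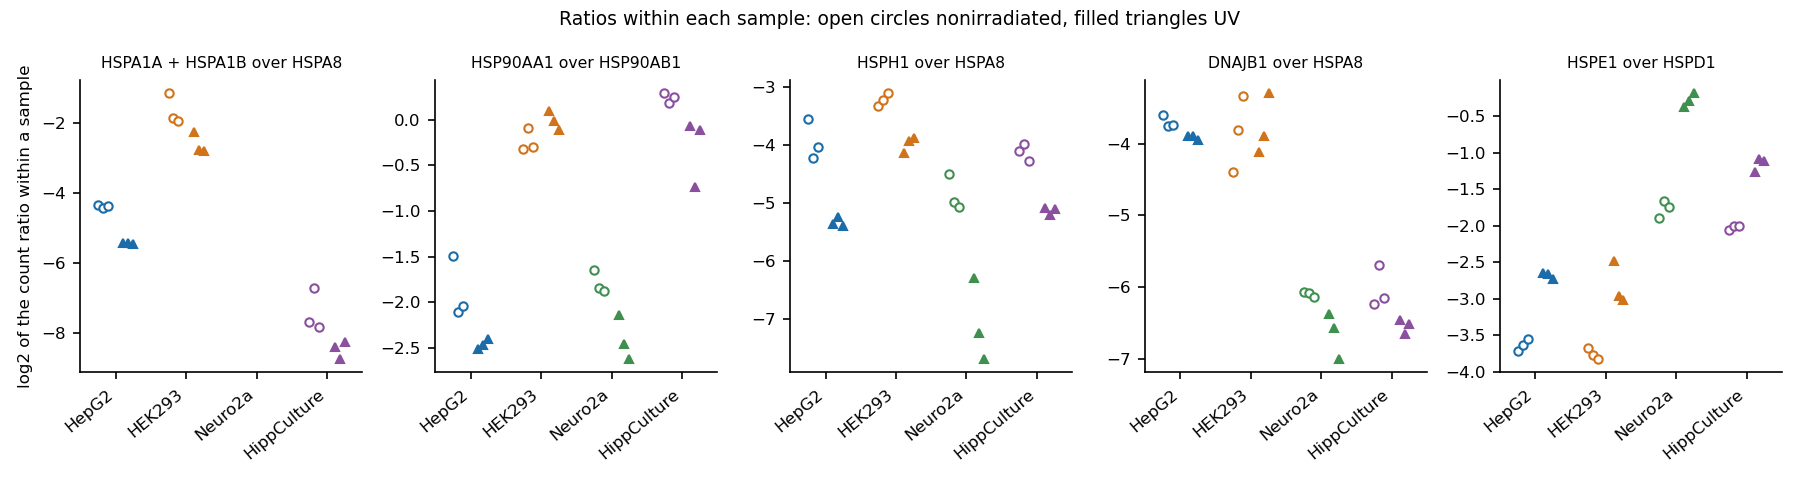
Log2 ratio of the counts of paired chaperones in each sample, by cell type and irradiation (open circles nonirradiated, filled triangles UV). HSPH1 over HSPA8 lies lower and HSPE1 over HSPD1 higher in the UV samples of all 4 cell types, and in HEK293 HSP90AA1 over HSP90AB1 and DNAJB1 over HSPA8 overlap between the groups.

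The HEK293 samples differed among themselves in nearly every member. Replicate 1 held the highest level of all 10 members without irradiation and of all 10 with it, where replicate 1 was the highest sample for 42.1% and 39.6% of all genes tested. Without irradiation, replicate 1 exceeded replicate 3 by 6.06-fold for HSPA1A, 4.61-fold for HSPA1B, 2.67-fold for HSPA8 and 2.29-fold for HSPH1, and by 1.34-fold for HSPA5 and 1.28-fold for DNAJB1. With UV the ratio was 3.16 for HSPA1A, 3.19 for HSPA1B and 2.18 for HSPA8. All 8 subunit genes of the cytosolic chaperonin CCT were also highest in replicate 1 of both groups. Without both samples numbered 1, 5 members were higher and 0 lower, where 6142 of 20730 genes were higher and 6147 lower. HSPA8 was then at 0.62 (adjusted p = 0.0052), HSPD1 at 0.59 (adjusted p = 0.00071) and HSPE1 at 1.40 (adjusted p = 2e-07). With the replicate number as a block, 6 members were higher and 2 lower in HEK293 (32.7% and 35.3% of all genes). The block also gave 6 higher and 2 lower in Neuro2a (30.7% and 34.6%).

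**Figure D5:**
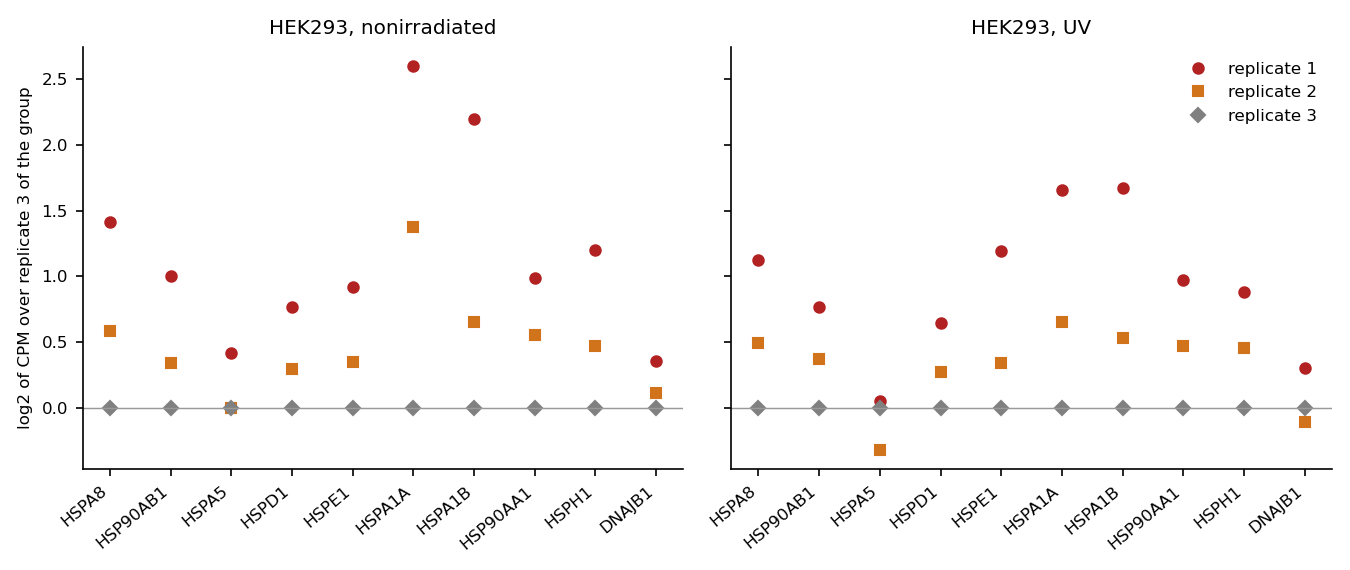
Level of each mRNA in the HEK293 samples as log2 of its CPM over that of replicate 3 of the same group, nonirradiated samples in the left panel and UV samples in the right, with 1 point per sample. Replicate 1 is the highest sample for all 10 mRNAs in both groups, by the widest margin for HSPA1A and HSPA1B.

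Between cell types of a species, 1 of the 8 members tested in the mouse passed as higher in Neuro2a, Hspe1, and 1 as lower, Hsph1. That is close to the share of all genes. Hspe1 rose more in Neuro2a than in HippCulture by 0.49 on the log2 scale (standard error 0.14, adjusted p = 0.017), and Hsph1 was lower there by a further −0.83 (standard error 0.23, adjusted p = 0.011), where 24.5% of 14973 genes differed. Hspa8 differed by 0.33 (adjusted p = 0.2), or by 0.31 with the block (adjusted p = 0.048). Without nonirradiated replicate 3 of HippCulture the difference of Hspe1 was 0.45 (adjusted p = 0.055). Between HepG2 and HEK293, edgeR called 0 of 10 members, 0 also at an unadjusted p under 0.05 and 0 with DESeq2, where 7.95% of 16759 genes differed. With the block HSPA8 passed there, at 0.50 (adjusted p = 0.032), and the intervals without it were wide (−0.30 to 1.36 for HSPA8 and −1.01 to 1.55 for HSPA1B). The blocked tests of the difference paired samples by number in every cell type. This includes HepG2 and HippCulture, whose same-numbered samples were not taken as paired.

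Other genes of the folding machinery were followed in 8 lists with 78 genes. Of those tested, 48 of 74 were higher and 12 lower in HepG2, beside 38.1% and 40.7% of all genes, and 29 and 14 of 74 in HEK293, beside 24.2% and 26.4%. With the block HEK293 had 43 and 20, beside 32.7% and 35.3%. Neuro2a had 41 and 22 of 76, beside 28.9% and 33.0%, and HippCulture 37 and 15 of 76, beside 26.1% and 25.9%. The 8 genes of CCT, which folds actin and tubulin, were higher in 8, 5, 7 and 7 cases and lower in 0 in the same order, and with the block all 8 were higher in HEK293 and in Neuro2a. J-domain proteins went both ways, with 8 higher and 4 lower of 16 in HepG2 and 6 and 7 in Neuro2a. Further Hsp70 and Hsp110 genes, outside the members, had more lower than higher calls except for HepG2 (2 higher, 1 lower, of 6). Of 7 tested, 3 were lower against 1 higher for HEK293, 5 against 1 for Neuro2a, 3 against 2 for HippCulture. Heat shock factors had 1 call in each direction per cell type. The remaining lists had more higher than lower calls throughout. CLPP, the mitochondrial protease subunit, was among the most raised in every cell type, at 2.30 in HepG2 (adjusted p = 2.6e-07), 1.85 for HEK293 (adjusted p = 4.2e-05), 1.85 for Neuro2a (adjusted p = 3.7e-09) and 1.16 for HippCulture (adjusted p = 2.3e-07). SDF2L1, of the endoplasmic reticulum, rose by 2.19 in HepG2 (adjusted p = 1.8e-06) and 1.98 in HEK293 (adjusted p = 0.0017), Hspb11 by 1.82 in Neuro2a (adjusted p = 4.3e-07) and Bag1, an Hsp70 exchange factor, by 1.24 in HippCulture (adjusted p = 2.1e-10).

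DNAJB14, a J-domain protein of the endoplasmic reticulum membrane, was among the 2 genes that fell most in 3 cell types, with −1.75 in HepG2 (adjusted p = 1.3e-06), −1.75 in HEK293 (adjusted p = 5.9e-05) and −1.16 in HippCulture (adjusted p = 1e-08), while in Neuro2a it was at −0.13 (adjusted p = 0.55). BAG4 fell in HepG2 (−1.19, adjusted p = 1.1e-05) and HEK293 (−1.51, adjusted p = 0.00014), and Chordc1, an Hsp90 co-chaperone, in HippCulture (−0.91, adjusted p = 2.1e-06). In Neuro2a the lowest by fitted difference were genes of few reads, and Hsf2, a heat shock factor named here after its values were seen, fell by 2.2 on the log2 scale, from a mean of 21 CPM to 4.52 CPM (adjusted p = 1.2e-07). Dnaja4 had 4, 11 and 3 counts without and 0 with UV, at least 2.4-fold lower with the floor of 3 counts set over the group (adjusted p = 0.018), a call that the DESeq2 test with the block did not make (adjusted p = 0.1). Hspa1l, a further Hsp70 gene, had 9, 13 and 17 counts without and 0, 2 and 0 with UV, a ratio of 7.8 (95% counting interval 2.02 to 66.7, adjusted p = 0.011).

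The genes most like HSPA1A over the 12 human samples, by Pearson correlation of log2 CPM over 13300 genes, were PRORP (0.985), HNRNPLL (0.980) and TOX4 (0.980). Those most like HSPA8 were ANXA7 (0.983), PRPF19 (0.974) and SUMO3 (0.964) in the human samples and Chrac1 (0.993), Gtf2b (0.992) and Ciao2b (0.992) in the 12 mouse samples, over 10436 genes. The samples fall into cell types and irradiation groups, which all these genes share.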

How the data were processed

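UV-irradiated and nonirradiated samples (3 each) of 4 cell types were compared by RNA-seq of aqueous-phase RNA. The authors depleted rRNA, mapped reads with TopHat2 (2.1.1) to hg38 or mm10 and deposited raw counts per gene from featureCounts (1.5.3 and 1.6.1, GENCODE 28 and M17), a read counting for every gene it overlaps. Symbols matched 99.0% of human and 99.82% of mouse identifiers. HepG2 was sequenced on another sequencer model than the other cell types.

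From the deposited counts, CPM, RPKM and log2 differences were computed here with edgeR (4.0.16, R 4.3.3): TMM scaling, genes with a mean of at least 0.5 CPM in nonirradiated samples, quasi-likelihood test over all of them, Benjamini-Hochberg adjustment, calls at an adjusted p of 0.05. CPM were scaled within the 6 samples of a cell type and RPKM, per kilobase of exon union, within the nonirradiated samples of a species. Ratios were tested by exact permutation, also in R. Intervals of counts cover counting error only. Replicates of a group were distinct libraries (chi-square per degree of freedom of 3.01 to 112 over 24 pairs, where 1 is sampling noise). The highest values, 112 and 83, were those of nonirradiated replicate 1 of HepG2 against replicates 2 and 3. Without that sample, the HepG2 differences of HSPA8, HSP90AB1, HSPD1 and HSPE1 went from 1.14, 0.67, 0.86 and 1.8 to 0.96, 0.44, 0.66 and 1.56. Their calls were kept, and HSPA5 stayed at 0.56. Deviations of same-numbered samples correlated at 0.70, 0.428 and 0.52 in HEK293 and 0.358, 0.131 and 0.192 in Neuro2a, so these were taken as paired, and at −0.0279, −0.000479 and −0.0322 in HepG2 and 0.154, 0.0846 and 0.0664 in HippCulture, which were not. The pairing comes from the replicate numbers in the labels.

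Alternatives were DESeq2 (1.42.0) as test and as scaling, the library total alone, other filters, the replicate block, HSPA1A and HSPA1B summed, and leaving out each sample. The DESeq2 block, the blocked sum and leaving out both HEK293 samples numbered 1 were added after seeing the data. Named were the 10 members and, of 78 pathway genes, the 2 most changed called genes in each direction per cell type. Members and lists were chosen with earlier results of these data known. The scripts were tested on simulated data. Part of the Neuro2a marker list is not reported here.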

Additional observations from a re-analysis of the deposited data

Results flagged for a closer look

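The UV effect of Hspe1 and of Hsph1 differed between the mouse cell types by the test of the difference itself. Of the 8 members tested, 1 was called higher and 1 lower, close to the 24.5% of 14973 genes that differed. For Hspe1 the log2 difference was 1.74 in Neuro2a and 1.25 in HippCulture, 0.491 apart (standard error 0.144, adjusted p = 0.017 by edgeR, 12 samples). It was 0.45 with an adjusted p of 0.055 without nonirradiated replicate 3 of HippCulture, and 0.40 with an adjusted p of 0.091 where every gene with at least 1 count was kept. For Hsph1 the log2 difference was −1.03 in Neuro2a and −0.21 in HippCulture, −0.831 apart (standard error 0.227, adjusted p = 0.011), and −1.20 to −0.64 over the 12 fits that left out a sample, each with the call kept.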

How the results depend on the processing

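The scaling mattered most. With the library total as the only scaling these log2 differences turned negative: −0.9 (HSPA1A), −0.17 (HSPA8), −0.75 (HSPA5), −1.19 (HSP90AA1), −0.63 (HSP90AB1), −0.44 (HSPD1) and −0.38 (DNAJB1) in HepG2, −0.02 (HSPA5), −0.66 (HSP90AB1) and −0.15 (DNAJB1) in HEK293, −0.08 (Hspa8), −0.85 (Hspa5), −0.83 (Hsp90ab1), −0.92 (Hspd1) and −0.62 (Dnajb1) in Neuro2a, −0.06 (Hspa5), −0.20 (Hsp90ab1), −0.16 (Hspd1) and −0.26 (Dnajb1) in HippCulture, and −0.15 for the Hspe1 difference between the mouse cell types. Of the members 1 was then called higher in each cell type, and 8 were called lower for HepG2, 3 for HEK293, 6 for Neuro2a and 4 for HippCulture, with 1 differing between the human and 5 between the mouse cell types. Keeping every gene with at least 1 count gave 5 higher and 1 lower in HEK293 (5267 and 6026 of 40332 genes). It gave 2 lower in Neuro2a (6109 of 34088 genes) and 1 difference in the mouse (766 genes higher and 2664 lower of 38993). Requiring 10 counts in every sample gave 2 lower in HepG2, 2 in Neuro2a and 1 at baseline in the mouse, where Hspa1a and Hspa1b are then not tested. The replicate block gave 0 lower in HepG2, 6 higher and 2 lower in HEK293, 2 lower in Neuro2a and 1 difference between the human lines, and the DESeq2 test with the replicate block, chosen after seeing the data, 6 and 2 in HEK293, 2 lower in Neuro2a, 0 lower in HippCulture and 3 human differences. DESeq2 without it gave 0 lower in HippCulture. The blocks were also fitted for HepG2 and HippCulture, whose same-numbered samples were not taken as paired. Leaving out 1 sample gave 0 to 2 lower in HepG2, 3 to 5 higher in HEK293, 1 to 2 lower in Neuro2a, 0 to 1 lower in HippCulture and 1 to 2 mouse differences. Leaving out both HEK293 samples numbered 1 gave 5 higher, where 6142 of 20730 genes were higher. The log2 ratio of HSPA1A alone over HSPA8 in HepG2 differed by −0.74. The causes were not tested. By depth, HSPA1A rests on 124 counts over the 3 nonirradiated HEK293 samples and Hspa1a and Hspa1b on 170 and 115 over those of HippCulture, while HSPA1B had 11563 in HEK293, where its highest nonirradiated sample was 4.61-fold above its lowest.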
